A study of Homo sapiens with 6 samples.

Results

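The genes described here are 33 genes of cholesterol and fatty acid synthesis, chosen by name and read in DLD1 cells, an established human colorectal cancer line. They fall into 5 arms: 5 regulators of the SREBP transcription factors, 7 genes of the mevalonate steps, 11 of the sterol steps, 1 of sterol transport and 9 of fatty acid synthesis. All 33 were among the 21519 genes of the co-culture table, and 25 were among the 9450 genes of the knockdown table, which lists only genes with an m7G peak. HMGCS1, MVK, MVD, INSIG2, LSS, ACLY, FADS2 and ELOVL5 have no row in the knockdown table and were not analysed there.

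Each group was 1 library. S-CAFs-w13 is DLD1 grown beside S-CAFs, the senescent cancer-associated fibroblasts of the series title; its genotype is labelled WT. DLD1-W13CM, also WT, was taken as the culture beside ordinary CAFs because it is the remaining RNA-seq library. Its title names no fibroblast, and a difference in culture cannot be told apart from a difference in fibroblasts. METTL1 knockdown cells stably carry the single construct sh2, and control cells carry sh-NT; each gave an input RNA library and an m7G immunoprecipitate (IP). With 1 library a group there is no replicate check and no test across libraries, so every fold below describes these libraries. The intervals in parentheses are 95% Clopper-Pearson intervals of the FPKM ratio (a level scaled to gene length and library size). They come from read numbers recovered from the deposited values and cover counting error only.

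Cells make cholesterol from acetyl-CoA through mevalonate and squalene, and fatty acids from acetyl-CoA through malonyl-CoA. SREBP proteins switch on both routes: SCAP carries them out of the endoplasmic reticulum when sterols are scarce, and INSIG proteins hold SCAP back when sterols are plentiful. INSIG1 is itself a target of SREBP. m7G is the base of the mRNA cap, which RNMT methylates, while METTL1 with WDR4 writes internal m7G, as in tRNAs.

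Effective library sizes, which scale the FPKM values, were 6215547 for S-CAFs-w13, 6337932 for DLD1-W13CM, 11625162 for knockdown input and 10454179 for control input. They are not read totals. The reads recovered were 6425485, 5870306, 8901155 and 7889271 in the same order. METTL1 stood at 3.28 FPKM in knockdown input and at 5.80 FPKM in control input, 1.77-fold lower (1.37 to 2.29). It stood at 1.78 FPKM in S-CAFs-w13 and at 4.82 FPKM in DLD1-W13CM. Of 16 fibroblast markers, 8 were in the co-culture table, and they summed to 4.65 FPKM in S-CAFs-w13 and to 3.29 FPKM in DLD1-W13CM. Of these 8, 3 had a counting interval above 1. PDGFRB, a receptor of fibroblasts and pericytes, stood at 0.564 FPKM in S-CAFs-w13 and 0.0221 FPKM in DLD1-W13CM (at least 25 and 1 reads), a ratio of 25.5 (4.17 to 1047). The collagen gene COL6A1 stood at 0.331 FPKM in S-CAFs-w13 and 0.0295 FPKM in DLD1-W13CM (11 and 1 reads), a ratio of 11.2 (1.63 to 483). COL1A1, a defining fibroblast collagen, stood at 0.229 FPKM in S-CAFs-w13 and 0.0482 FPKM in DLD1-W13CM (14 and 3 reads), a ratio of 4.76 (1.33 to 25.8). The intervals of ACTA2, COL6A3, TAGLN, SPARC and VIM included 1. ACTA2, the 1 marker that averaged 1 FPKM or more, stood at 1.51 FPKM in S-CAFs-w13 and 1.80 FPKM in DLD1-W13CM. Its ratio was 0.840 (0.383 to 1.81). The part of these low fibroblast signals in the differences below was not tested. Of the 8 colon epithelial markers, 4 were above 0, with a median log2 ratio of -0.0055, but they went both ways. The keratins KRT8 (ratio 1.39, 1.37 to 1.41), KRT18 (1.79, 1.75 to 1.82) and KRT19 had intervals above 1. CDH1 (0.771, 0.739 to 0.803) and CDX2 had intervals below 1, and those of EPCAM, KRT20 and VIL1 included 1. The keratin KRT19 stood at 273 FPKM in S-CAFs-w13 and 120 FPKM in DLD1-W13CM, 2.27-fold higher (2.14 to 2.40), and was past 2-fold. CDX2, an intestinal transcription factor, stood at 6.83 FPKM in S-CAFs-w13 and 19.0 FPKM in DLD1-W13CM, 2.78-fold lower (2.33 to 3.32). Reads lost from a gene in fewer cells and in less RNA per cell cannot be told apart in such bulk libraries.

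The comparison of S-CAFs-w13 with DLD1-W13CM bears on DLD1 cells beside senescent fibroblasts, as far as DLD1-W13CM is the CAF culture. Genes of each arm were higher in S-CAFs-w13, while others of the mevalonate, sterol and fatty acid arms were lower. Averaged over both libraries, 31 members reached 1 FPKM. Of these, 11 were 2-fold or more higher on the log2(FPKM + 1) scale, beside 9.08% of 14739 genes, and 1, PMVK, was 2-fold or more lower, beside 7.92%. At any size, 22 of the 31 had a log2 ratio above 0, beside 52.3% of genes. The counting interval lay wholly above 1 for 19, beside 28.8% of 14513 genes, wholly below 1 for 6, beside 25.9%, and wholly above 2-fold for 9, beside 4.69%. By arm, it lay above 1 for 4 of 5 regulators, 4 of 7 mevalonate genes, 6 of 11 sterol genes and 4 of 7 fatty acid genes. It lay below 1 for 0, 2, 2 and 2 in that order. The 11 were INSIG1, INSIG2, SREBF1, SREBF2, HMGCS1, MVD, FDFT1, SQLE, MSMO1, STARD4 and SCD. SQLE was at 1.06 on that scale and was under 2-fold on the authors' own scaling (0.91) and when the libraries were rescaled without the mitochondrial genome (0.84); these scalings move the median of all genes, 0.02, to -0.12 and -0.15.

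Summed over all 33 members, the level was 1219 FPKM in S-CAFs-w13 and 445 FPKM in DLD1-W13CM, a ratio of 2.74. Such sums weigh most the genes with the highest FPKM. SCD, MSMO1, INSIG1 and HMGCS1, the 4 highest in S-CAFs-w13, summed to 686 FPKM there and 93.1 FPKM in DLD1-W13CM, a ratio of 7.37. The other 29 members summed to 533 and 352 FPKM, a ratio of 1.52. By arm, the ratio of the summed levels was 4.89 for the regulators, 2.47 for the mevalonate steps, 2.95 for the sterol steps and 2.17 for fatty acid synthesis. The median FPKM ratio over the members averaging 1 FPKM or more was lower in each, at 2.52, 1.58, 1.55 and 1.14 in the same order. In DLD1-W13CM the order of the levels was different, with ACLY (67.3 FPKM) and FASN (51.2 FPKM) above SCD (48.2 FPKM).

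**Figure D1:**
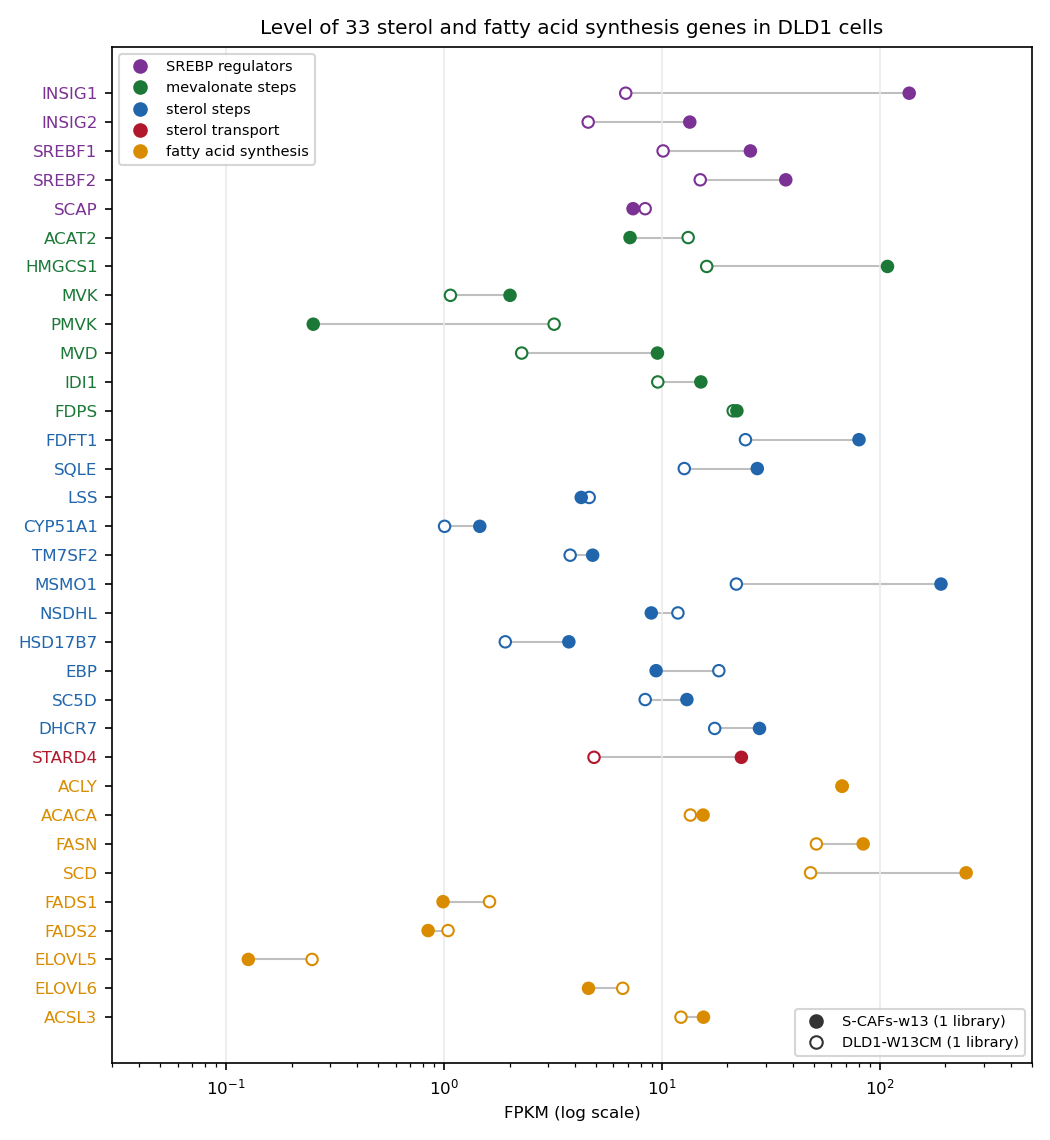
FPKM (log scale) of the 33 genes in S-CAFs-w13 (filled circles) and DLD1-W13CM (open circles), 1 library each, coloured by arm. INSIG1 shows the longest gap to the right, at 137 FPKM in S-CAFs-w13 and 6.83 FPKM in DLD1-W13CM, while PMVK runs the other way, at 0.251 and 3.20 FPKM.

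Among the SREBP regulators, 4 of 5 were at least 2-fold higher in S-CAFs-w13, beside 9.08% of all genes. The arm's median log2 ratio was 1.25 (all genes, 0.02). INSIG1, which retains SCAP in the endoplasmic reticulum, stood at 137 FPKM in S-CAFs-w13 and 6.83 FPKM in DLD1-W13CM. It was 20.0-fold higher (17.0 to 23.6), and on the log2(FPKM + 1) scale its place was 6 from the top among the 14739 genes. Its paralog INSIG2, which has the same role, stood at 13.4 FPKM in S-CAFs-w13 and 4.59 FPKM in DLD1-W13CM, 2.93-fold higher (1.80 to 4.93, from at least 66 and 23 reads). INSIG1 was thus 10.2 times the level of INSIG2 in S-CAFs-w13 and 1.49 times its level in DLD1-W13CM.

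The genes of both transcription factors were higher by like amounts. SREBF2, whose product acts mainly on sterol genes, stood at 37.1 FPKM in S-CAFs-w13 and 15.0 FPKM in DLD1-W13CM, 2.47-fold higher (2.26 to 2.70). SREBF1, whose product acts mainly on fatty acid genes, stood at 25.5 FPKM in S-CAFs-w13 and 10.1 FPKM in DLD1-W13CM, 2.52-fold higher (2.27 to 2.79). Their intervals overlap, and the level of SREBF1 over that of SREBF2 was 0.688 in S-CAFs-w13 and 0.675 in DLD1-W13CM. SCAP, the escort protein, stood at 7.38 FPKM in S-CAFs-w13 and 8.39 FPKM in DLD1-W13CM, and its ratio of 0.880 (0.749 to 1.03) had an interval that included 1.

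The genes that process SREBP or degrade its regulators were read from a list of 12 symbols that includes the site proteases MBTPS1 and MBTPS2. Under these symbols 11 genes were measured, with a median log2 ratio of -0.13. Of these, 0 were past 2-fold either way, beside 9.08% of all genes higher and 7.92% lower. MBTPS1 stood at 10.6 FPKM in S-CAFs-w13 and 10.6 FPKM in DLD1-W13CM.

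The mevalonate arm went both ways, with 2 of 7 members at least 2-fold higher, 1 lower and a median log2 ratio of 0.54. HMGCS1, which makes HMG-CoA, stood at 109 FPKM in S-CAFs-w13 and 16.1 FPKM in DLD1-W13CM, 6.75-fold higher (6.13 to 7.45). MVD, which decarboxylates mevalonate diphosphate, stood at 9.55 FPKM in S-CAFs-w13 and 2.27 FPKM in DLD1-W13CM, 4.20-fold higher (3.21 to 5.56). These enzymes sit on either side of PMVK in the pathway, and PMVK, the phosphomevalonate kinase, was low.

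PMVK stood at 0.251 FPKM in S-CAFs-w13 and 3.20 FPKM in DLD1-W13CM, a ratio of 0.0784 (0.00185 to 0.522). The smallest read numbers the values allow are 1 in S-CAFs-w13 and 13 in DLD1-W13CM, so the size of this difference is poorly fixed. If the true numbers were multiples of these, the interval would be narrower. MVK, the kinase that acts just before it, stood at 2.01 FPKM in S-CAFs-w13 and 1.07 FPKM in DLD1-W13CM, 1.88-fold higher (1.28 to 2.77).

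At the entry of the pathway, ACAT2, which joins acetyl-CoA units in the cytosol, stood at 7.15 FPKM in S-CAFs-w13 and 13.2 FPKM in DLD1-W13CM, a ratio of 0.541 (0.452 to 0.647). On the log2(FPKM + 1) scale it was at -0.80, and it passed 2-fold lower only without the mitochondrial genome (-1.01). HMGCS1, the next enzyme, was 15.2 times the level of ACAT2 in S-CAFs-w13 and 1.22 times its level in DLD1-W13CM. At the far end of the arm, the isomerase IDI1 stood at 15.1 FPKM in S-CAFs-w13 and 9.58 FPKM in DLD1-W13CM, 1.58-fold higher (1.33 to 1.88). FDPS, which makes farnesyl diphosphate, stood at 22.1 FPKM in S-CAFs-w13 and 21.3 FPKM in DLD1-W13CM, with a ratio of 1.04 (0.918 to 1.18) that turned below 1 on the authors' scaling and without the mitochondrial genome.

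The sterol arm, from squalene to cholesterol, had 3 of 11 members at least 2-fold higher and 0 lower, with a median log2 ratio of 0.58. MSMO1, an oxidase that takes methyl groups off lanosterol derivatives, stood at 191 FPKM in S-CAFs-w13 and 22.0 FPKM in DLD1-W13CM, 8.69-fold higher (7.84 to 9.66). FDFT1, the squalene synthase, stood at 80.4 FPKM in S-CAFs-w13 and 24.2 FPKM in DLD1-W13CM, 3.32-fold higher (3.07 to 3.60). The first oxygen-requiring enzyme, SQLE, stood at 27.4 FPKM in S-CAFs-w13 and 12.7 FPKM in DLD1-W13CM, 2.16-fold higher (1.90 to 2.47).

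The steps between and after these enzymes differed less. DHCR7, which reduces the last intermediate to cholesterol, was 1.61-fold higher (1.43 to 1.81) at 28.1 FPKM in S-CAFs-w13 and 17.5 FPKM in DLD1-W13CM. SC5D, the desaturase before it, was 1.55-fold higher (1.34 to 1.81). HSD17B7, a ketosteroid reductase, stood at 3.75 FPKM in S-CAFs-w13 and 1.91 FPKM in DLD1-W13CM, 1.96-fold higher (1.18 to 3.31). Its unprocessed pseudogene HSD17B7P2 stood at 3.42 FPKM in S-CAFs-w13 and 0.210 FPKM in DLD1-W13CM, so reads may be split between the 2 copies.

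The remaining sterol enzymes were lower or had intervals that included 1. EBP, a sterol isomerase, stood at 9.42 FPKM in S-CAFs-w13 and 18.3 FPKM in DLD1-W13CM, a ratio of 0.515 (0.355 to 0.740). It was at -0.89 on the log2(FPKM + 1) scale and passed 2-fold lower on the authors' scaling (-1.03) and without the mitochondrial genome (-1.10). NSDHL, which works beside MSMO1 in demethylation, stood at 8.95 FPKM in S-CAFs-w13 and 11.9 FPKM in DLD1-W13CM, a ratio of 0.755 (0.585 to 0.971). The level of MSMO1 over that of NSDHL was 21.4 in S-CAFs-w13 and 1.85 in DLD1-W13CM. The intervals of LSS, which closes the sterol rings (ratio 0.919, 0.752 to 1.12), CYP51A1, a demethylase (1.45, 0.855 to 2.496), and TM7SF2, a sterol reductase (1.27, 0.939 to 1.72), included 1.

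STARD4, which moves sterols between membranes in the cytosol, stood at 23.2 FPKM in S-CAFs-w13 and 4.89 FPKM in DLD1-W13CM, 4.75-fold higher (4.03 to 5.62). A list of 14 genes of sterol uptake, efflux and LXR signalling had 10 measured members, of which 2 were at least 2-fold higher and 0 lower, with a median log2 ratio of 0.33. One of those was ABCG1, a sterol exporter, at 3.29 FPKM in S-CAFs-w13 and 0.309 FPKM in DLD1-W13CM, 10.6-fold higher (5.87 to 21.1). NPC1, which exports cholesterol from lysosomes, stood at 14.6 FPKM in S-CAFs-w13 and 7.06 FPKM in DLD1-W13CM. NR1H3, of the same list, stood at 0.958 FPKM in S-CAFs-w13 and 2.16 FPKM in DLD1-W13CM. As plain FPKM ratios, NPC1 was 2.07-fold higher (1.85 to 2.32) and NR1H3 2.25-fold lower (1.41 to 3.68).

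The fatty acid arm had the lowest median of the 5 arms, with 1 of 7 members past 2-fold among those that averaged 1 FPKM or more, and a log2 ratio of 0.18 at the median. That median was 0.038 on the authors' scaling, -0.028 without the mitochondrial genome and -0.0026 with no filter. SCD, which desaturates stearate to oleate, was the member past 2-fold, at 249 FPKM in S-CAFs-w13 and 48.2 FPKM in DLD1-W13CM, 5.18-fold higher (4.91 to 5.46). FASN, which makes palmitate, stood at 84.0 FPKM in S-CAFs-w13 and 51.2 FPKM in DLD1-W13CM, 1.64-fold higher (1.57 to 1.72). SCD was 2.97 times the level of FASN in S-CAFs-w13 and 0.940 times its level in DLD1-W13CM.

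ACLY, which makes cytosolic acetyl-CoA for both pathways, stood at 67.1 FPKM in S-CAFs-w13 and 67.3 FPKM in DLD1-W13CM, a ratio of 0.998 (0.940 to 1.06). ACACA, which makes malonyl-CoA, had a ratio of 1.14 (1.05 to 1.24) that turned below 1 without the mitochondrial genome. ACSL3, which activates fatty acids, was 1.27-fold higher (1.13 to 1.42).

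ELOVL6 and FADS1 had intervals below 1. ELOVL6, which elongates palmitate, stood at 4.61 FPKM in S-CAFs-w13 and 6.62 FPKM in DLD1-W13CM, a ratio of 0.696 (0.581 to 0.833). FADS1 stood at 0.991 FPKM in S-CAFs-w13 and 1.62 FPKM in DLD1-W13CM, a ratio of 0.612 (0.440 to 0.844). FADS2, its partner desaturase, stood at 0.846 FPKM in S-CAFs-w13 and 1.04 FPKM in DLD1-W13CM, and the elongase ELOVL5 at 0.127 and 0.248 FPKM. Neither reached a mean of 1 FPKM, and both intervals included 1.

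Other fatty acid synthesis genes, a list of 20, had 15 measured members with 4 at least 2-fold higher and 1 lower, and a median log2 ratio of 0.02. MLXIPL, a glucose-responsive transcription factor of lipid synthesis, stood at 5.48 FPKM in S-CAFs-w13 and 0.524 FPKM in DLD1-W13CM, 10.5-fold higher (6.25 to 18.7). ACSS2, which makes acetyl-CoA from acetate, stood at 20.5 FPKM in S-CAFs-w13 and 4.34 FPKM in DLD1-W13CM, 4.73-fold higher (3.95 to 5.68). The others were the acyl-CoA synthetase ACSL4 (2.82-fold higher) and PNPLA3 (4.16-fold higher). The acyl-CoA synthetase ACSL5 was the lower one, at 16.8 FPKM in S-CAFs-w13 and 36.3 FPKM in DLD1-W13CM.

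**Figure D2:**
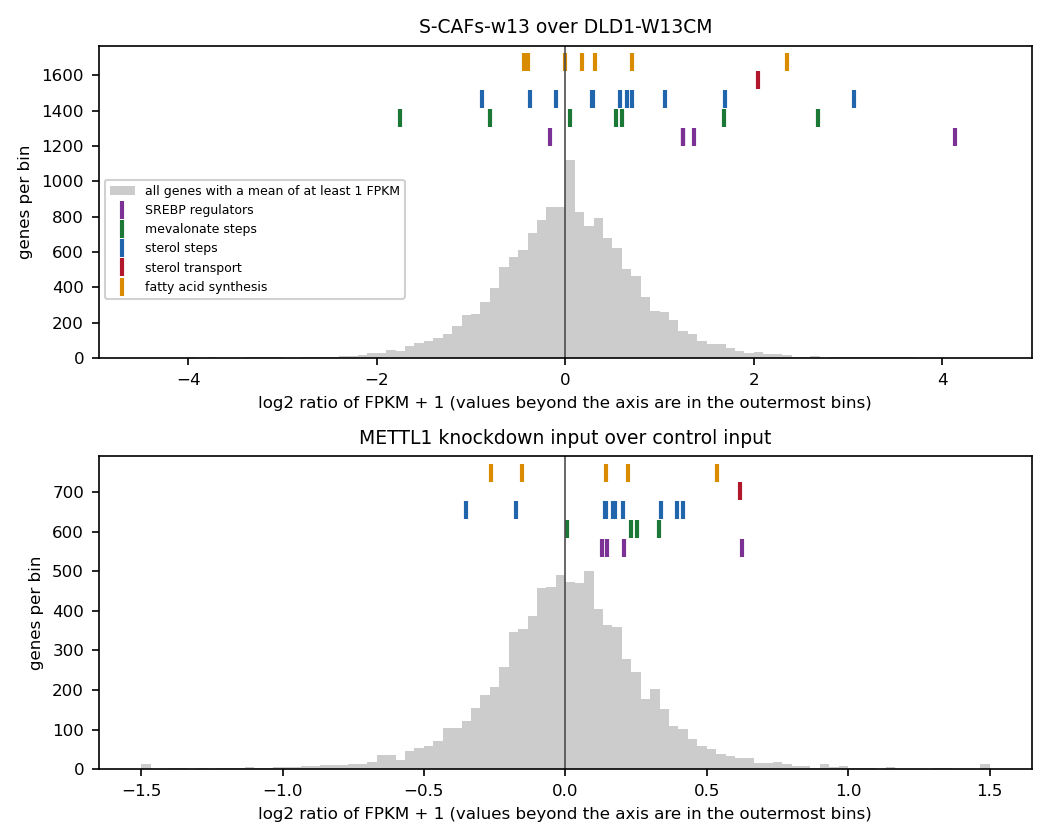
Histograms of the log2 ratio of FPKM + 1 over all genes that averaged 1 FPKM or more, with a tick for each member by arm; upper panel S-CAFs-w13 over DLD1-W13CM, lower panel METTL1 knockdown input over control input, on different axes. In the upper panel 11 members lie past 1 and PMVK below -1; in the lower panel all 24 ticks lie within 1 of 0.

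Promoter sequences are shown because SREBP works beside the factor NF-Y at sterol-regulated promoters. RefSeq windows (GRCh38.p14, 250 bases before to 50 after a start) were matched for 29 of the 33 members. Each motif was searched on its own on both strands, so matches of different motifs may overlap. The sterol regulatory element core TCACNCCAC was found in 1 of the 29, SREBF2, and in 1.39% of all 27305 genes with a window. Only this string was searched (N is any base). An element that departs from it or lies outside the windows was not counted, so no match does not show that an element is absent. The NF-Y box CCAAT was found in 22 of 29 members (75.9%), in 39.7% of all genes and in 43.5% of the 8669 genes with a window that averaged 1 FPKM or more in co-culture. The GC box GGGCGG was found in 27 of 29 (93.1%), in 48.3% of all genes and in 77.6% of those at 1 FPKM or more.

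Of the 9 members at least 2-fold higher in S-CAFs-w13 that had a window, 7 held the NF-Y box (77.8%), as did 15 of the 20 other members with one (75.0%). A match is a string of letters and not a shown binding site. The windows below, 30 bases long and read 5′ to 3′ on the gene's strand, hold in capitals the sterol element core (first line) or the CCAAT box nearest before a start of the gene, which reads ATTGG where it lies on the other strand.
SREBF2, sterol element, chr22:41832962-41832991, plus strand: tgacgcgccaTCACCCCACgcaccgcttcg
SREBF2, NF-Y box, chr22:41832987-41833016, plus strand: cttcgctcgcccATTGGctgagatgagcct
INSIG1, NF-Y box, chr7:155297696-155297725, plus strand: cgccggcctcccATTGGttgcggccgcctc
HMGCS1, NF-Y box, chr5:43313495-43313524, minus strand: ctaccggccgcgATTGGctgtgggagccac
MVD, NF-Y box, chr16:88663159-88663188, minus strand: ggctcgcacgggCCAATcctgtggtagcgc
MSMO1, NF-Y box, chr4:165327623-165327652, plus strand: agctctcgcaggCCAATaacgacaggacgg
STARD4, NF-Y box, chr5:111512648-111512677, minus strand: ctcccgcgccagCCAATccgaacaagcgca
SCD, NF-Y box, chr10:100347035-100347064, plus strand: aattcccttcggCCAATgacgagccggagt
The SREBF2 windows overlap: the sterol element starts 133 bases and the NF-Y box 106 bases before the start.

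The knockdown comparison asks what a lower METTL1 level does to RNA levels. The same genes were slightly higher in knockdown input: of 24 members averaging 1 FPKM or more, 20 had a log2 ratio above 0, beside 51.2% of 8400 genes. No member was past 2-fold (0 higher, 0 lower), beside 0.429% of genes higher and 0.560% lower. The counting interval lay wholly above 1 for 16 of the 24 and wholly below 1 for 3, beside 24.8% and 23.0% of 8393 genes; it lay above 2-fold for 0, beside 0.262%. The median ratio over the 24 was 1.15, and that over all genes was 1.005. The summed level of the 25 listed members was 631 FPKM in knockdown input and 527 FPKM in control input, a ratio of 1.20. Since only sh2 was read, METTL1 loss and other effects of that construct cannot be told apart.

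INSIG1 and STARD4 differed most, and both passed 1.5-fold. STARD4 stood at 4.30 FPKM in knockdown input and 2.46 FPKM in control input, 1.75-fold higher (1.43 to 2.15). INSIG1 stood at 20.9 FPKM in knockdown input and 13.2 FPKM in control input, 1.58-fold higher (1.42 to 1.77). Next came SCD, at 69.7 FPKM in knockdown input and 47.7 FPKM in control input, 1.46-fold higher (1.39 to 1.53).

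The other regulators were higher by small amounts, with intervals above 1. SREBF2 stood at 37.1 FPKM in knockdown input and 32.0 FPKM in control input, 1.16-fold higher (1.101 to 1.22). SREBF1 stood at 30.5 FPKM in knockdown input and 27.8 FPKM in control input, 1.098-fold higher (1.04 to 1.16). SCAP stood at 21.4 FPKM in knockdown input and 19.2 FPKM in control input, 1.11-fold higher (1.03 to 1.20).

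In the mevalonate arm, IDI1 stood at 18.4 FPKM in knockdown input and 14.4 FPKM in control input, 1.27-fold higher (1.14 to 1.43). FDPS stood at 57.9 FPKM in knockdown input and 48.4 FPKM in control input, 1.20-fold higher (1.13 to 1.27), and ACAT2 at 18.9 and 16.0 FPKM, 1.18-fold higher (1.07 to 1.31). PMVK, the low gene of the co-culture, stood at 14.1 FPKM in knockdown input and 14.0 FPKM in control input.

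In the sterol arm, 8 of 10 members were above 0. FDFT1 stood at 56.7 FPKM in knockdown input and 42.2 FPKM in control input, 1.34-fold higher (1.27 to 1.42). NSDHL was 1.34-fold higher (1.13 to 1.596), SC5D 1.31-fold (1.14 to 1.51), DHCR7 1.16-fold (1.06 to 1.27) and SQLE 1.11-fold (1.01 to 1.21). MSMO1 stood at 8.83 FPKM in knockdown input and 7.74 FPKM in control input, and its interval of 0.958 to 1.36 included 1. For EBP (25.3 FPKM in knockdown input and 22.3 FPKM in control input), HSD17B7 (3.34 and 2.92 FPKM) and CYP51A1 (2.09 and 2.49 FPKM) the intervals also included 1. TM7SF2 was the sterol gene whose interval lay below 1, at 7.80 FPKM in knockdown input and 10.2 FPKM in control input (ratio 0.763, 0.654 to 0.891).

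In the fatty acid arm, FASN stood at 131 FPKM in knockdown input and 112 FPKM in control input, 1.17-fold higher (1.14 to 1.20), and ACACA was 1.11-fold higher (1.06 to 1.17). FADS1, at 0.420 FPKM in knockdown input and 0.346 FPKM in control input, averaged under 1 FPKM. ELOVL6 stood at 2.23 FPKM in knockdown input and 2.87 FPKM in control input (ratio 0.776, 0.635 to 0.947). ACSL3 stood at 8.80 FPKM in knockdown input and 9.90 FPKM in control input (ratio 0.890, 0.803 to 0.986).

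Genes around the pathway lay on both sides of 0. Of 11 measured genes of SREBP processing and turnover, 7 were above 0 with a median log2 ratio of 0.01, and 0 were past 2-fold. Of 5 measured genes of sterol uptake, efflux and LXR signalling, 2 were above 0 with a median of -0.23. Of 7 measured colon epithelial markers, 5 were above 0 with a median of 0.25, and 0 were past 2-fold. The keratins KRT8, KRT18, KRT19 and KRT20 had intervals above 1, CDH1 (ratio 0.882, 0.8504 to 0.915) and CDX2 (0.897, 0.844 to 0.953) had intervals below 1, and that of EPCAM included 1. The part of these markers in the difference of the lipid genes was not tested.

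**Figure D3:**
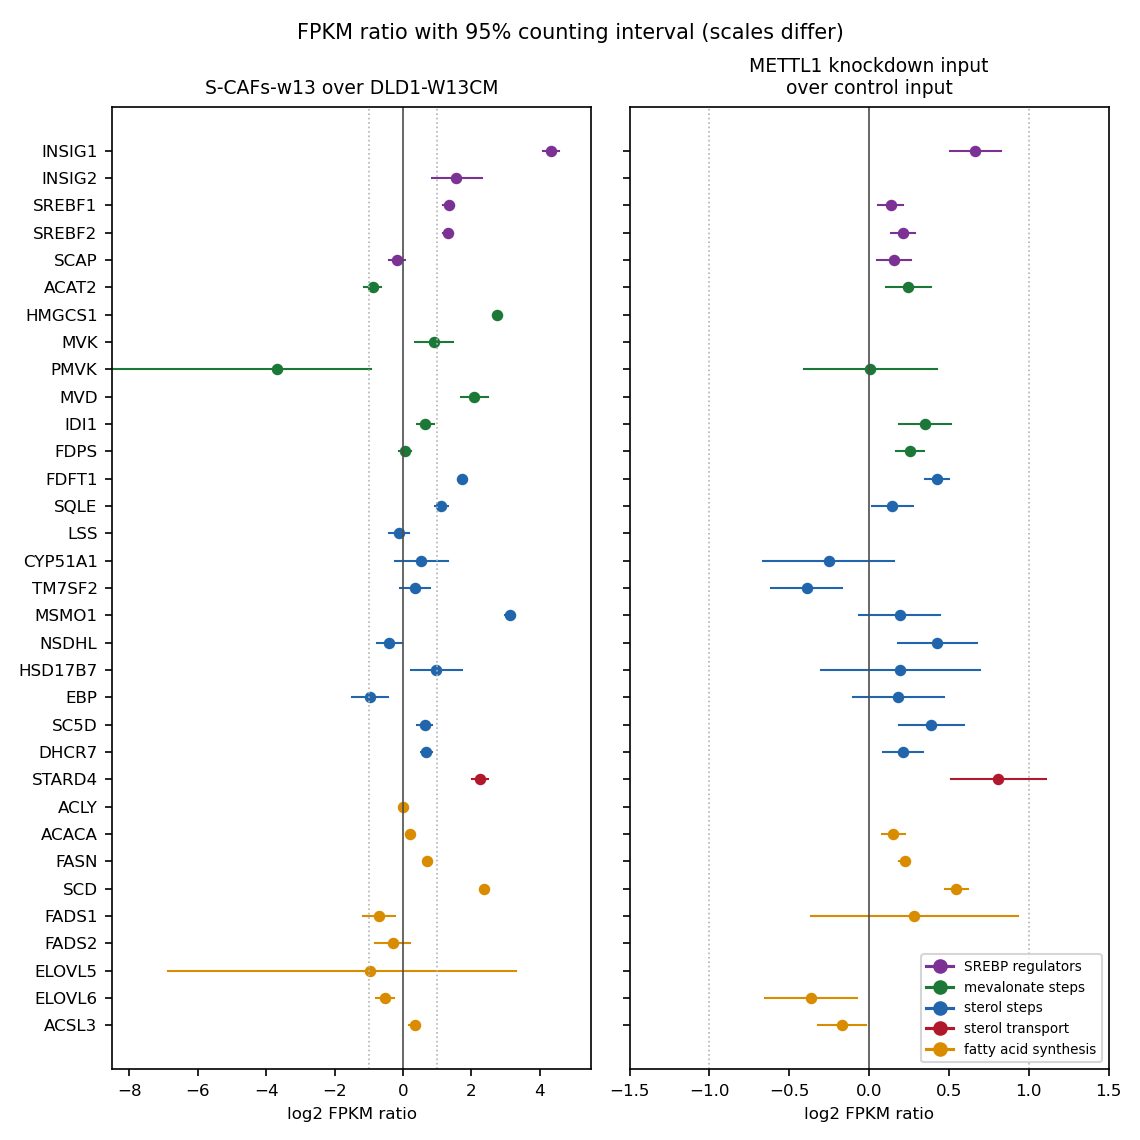
log2 FPKM ratio of each member (points) with its 95% counting interval (lines), S-CAFs-w13 over DLD1-W13CM on the left and METTL1 knockdown input over control input on the right, where scales differ and dotted lines mark 2-fold. Genes with no point on the right have no row in the knockdown table; INSIG1, STARD4 and SCD lie to the right in both panels, and PMVK lies far left in the left panel only, with an interval of 0.00185 to 0.522 as a ratio that runs past the axis.

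The comparisons share no library, so their values can be set side by side. Of the 11 members at least 2-fold higher in S-CAFs-w13, 8 were in the knockdown table, all 8 were above 0 there, and the interval of 7 lay above 1. Their median ratio in knockdown input over control input was 1.25, and that of the 16 other members measured in both was 1.14. Across the 24 members measured in both, the log2 FPKM ratios had a Pearson r of 0.49 and a Spearman rho of 0.42. Across the 7935 genes measured in both, r was 0.08 and rho 0.06. These are descriptions across genes that share 4 libraries, not tests. In both, 15 of 24 members were higher, beside 26.3% of the 7935 genes.

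The m7G comparison asks which transcripts gain or lose m7G when METTL1 is reduced. Each of the 25 listed members has 1 peak. The deposited table does not state which line the m7G change has on top; it is read here as knockdown over control, and every sign below turns round under the other reading. Peak positions fit GRCh38: of 8512 peaks with a RefSeq gene of the same symbol, the centre of 8004 lay inside that gene. In the authors' deposited table, 16 of the 25 member peaks (64.0%) were annotated to the 5′ UTR, beside 49.5% of all peaks. A further 6 were annotated to coding sequence (29.5% of all peaks), 3 to exons (18.6%), 0 to the 3′ UTR (2.06%) and 0 to start codons (0.349%) in the authors' deposited table. Fold enrichment of IP over input had a median of 17.9 over the members and 12.4 over all peaks, as given by the authors' deposited table. Over 5′ UTR peaks alone, the authors' deposited table gave 22.6 for the members and 14.9 for all.

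Enrichment varied widely among members. In the authors' deposited table it was highest for FDFT1, 51.6 (5′ UTR, chromosome 8, 11802338 to 11803081). SQLE followed in the authors' deposited table with 39.2 (5′ UTR, chromosome 8, 124998497 to 124999035), and ACAT2 with 38.7 (5′ UTR, chromosome 6, 159761940 to 159762650). INSIG1 had 33.3 in the authors' deposited table, in a 5′ UTR peak on chromosome 7 (155297836 to 155298426) whose centre lay 53 bases from the gene's RefSeq 5′ end. SCD had 35.0 in the authors' deposited table (5′ UTR, chromosome 10, 100347124 to 100348075).

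The 4 lowest values belonged to peaks centred well downstream of the RefSeq 5′ end of their gene. Peaks with higher enrichment in the authors' deposited table were also centred downstream. Among them were FDFT1 (51.6, 7188 bases from that end), PMVK (16.4, 5868 bases) and IDI1 (9.43, 7804 bases). For MSMO1, one of the 4 lowest, the distance was 5737 bases. SREBF2 had 1.37 in the authors' deposited table, in a coding peak on chromosome 22 (41867001 to 41867181) centred 33985 bases from the RefSeq 5′ end. MSMO1 had 2.11 in the authors' deposited table, in a coding peak on chromosome 4 (165333347 to 165333466), and ACSL3 had 2.48 there, in a coding peak on chromosome 2 (222930691 to 222933075). SREBF1, whose peak on chromosome 17 (17820432 to 17820702) is annotated 5′ UTR but lies 16420 bases from the RefSeq 5′ end, had 2.66 in the authors' deposited table.

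The m7G of these transcripts showed no common direction. Of the member peaks, 11 were higher in knockdown cells and 14 lower in the authors' deposited table, beside 50.1% and 48.6% of all peaks. Their median log2 change was -0.07 in the authors' deposited table, and that of all peaks 0.004. At an FDR under 0.05 in that table, 1 member was lower and 0 higher, beside 2.18% of peaks lower and 3.07% higher. This was SREBF2, at a log2 change of -0.997 (p = 3.89e-05, FDR = 0.00288) in the authors' deposited table. The SREBF2 peak had an enrichment of only 1.37 in the authors' deposited table, and just 0.381% of all peaks had a lower one. The m7G values rest on 1 IP and 1 input library a line and cannot cover variation between cultures.

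At a p-value under 0.05 in the authors' deposited table, 3 of the 25 member peaks differed, beside 16.1% of all peaks; 1 was higher (8.60% of all peaks) and 2 lower (7.50%). Besides SREBF2 these were FDPS, higher by 0.46 (FDR 0.0912; exon, chromosome 1, 155308778 to 155309168), and SQLE, lower by a log2 change of -0.69 (FDR 0.189), both in the authors' deposited table. DHCR7 had the lowest log2 change, -1.86, and HSD17B7 the highest, 1.46, with FDRs of 0.649 and 0.471 in the authors' deposited table.

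By arm, the median log2 changes in the authors' deposited table were 0.05 for 4 regulators, 0.18 for 4 mevalonate genes, -0.21 for 10 sterol genes, -0.55 for STARD4 and 0.46 for 6 fatty acid genes. Of the 21 members with a higher FPKM in knockdown input, 12 had an m7G change below 0. Across the 25 members the m7G change and the input log2 FPKM ratio had a Pearson r of -0.13 and a Spearman rho of -0.06, and across 9348 peaks rho was -0.14, as a description, since the input libraries enter both measures.

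**Figure D4:**
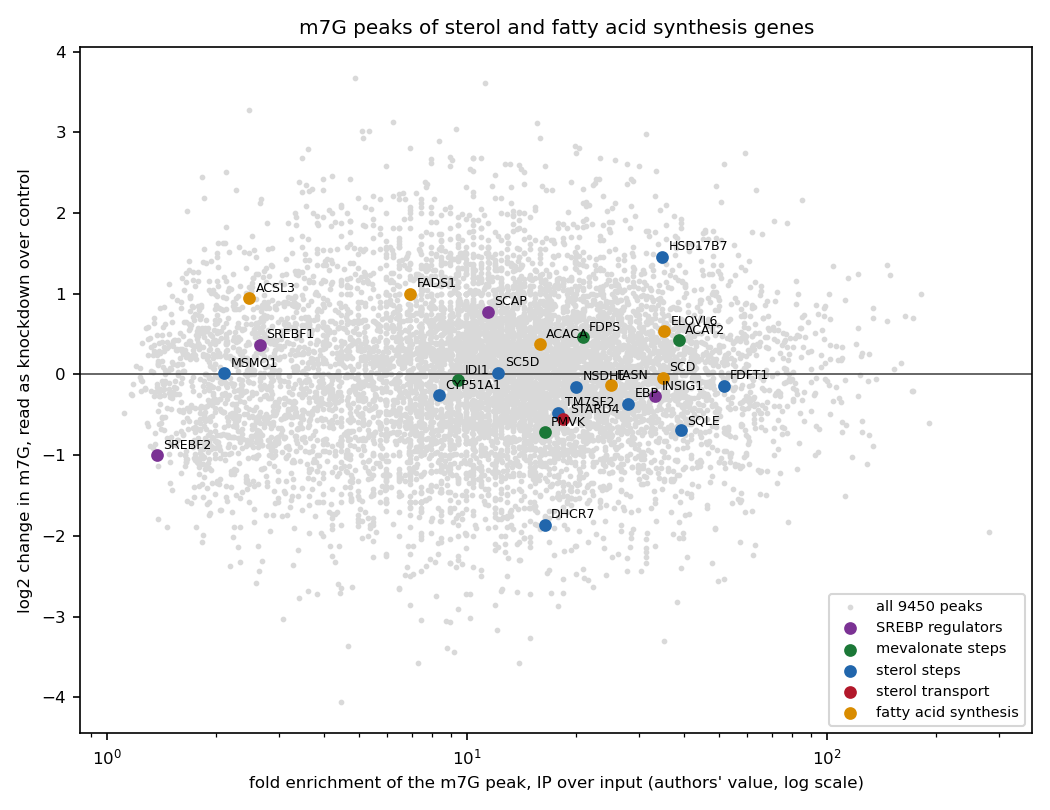
log2 change in m7G, read as knockdown over control, against fold enrichment of the peak (IP over input, log scale), for the 25 members by arm and for all peaks in grey, all from the authors' deposited table. SREBF2 sits at the far left (1.37) at -0.997, DHCR7 lowest at -1.86, and members lie on both sides of 0.

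Several members share ground with other genes, and the sources used here do not give the strand setting of the counting. In RefSeq, ACAT2 overlaps TCP1 by 615 bases and SOD2 by 237, FADS1 and FADS2 overlap each other by 801 bases, MVK overlaps MMAB by 233, and INSIG1 overlaps its divergent transcript INSIG1-DT by 1103. The FPKM of these genes may hold reads of the neighbour. FDPS has processed pseudogene copies in the table, of which FDPSP7 was at 1.22 FPKM in S-CAFs-w13 and 0.449 FPKM in DLD1-W13CM.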

How the data were processed

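RNA-seq was measured in DLD1 cells of S-CAFs-w13 and DLD1-W13CM, of which the second was taken as a CAF co-culture by elimination, and input RNA and m7G IP in METTL1 knockdown and control cells, with 1 library a group. Per the submitters' processing notes, the tools include HOMER 4.10.4, SAMtools 1.10, featureCounts 1.6.3, HISAT2 2.1.0, cutadapt 2.5 and DESeq2 (version not listed); builds listed are hg38, GRCm38 and GRCh38. Neither roles nor a peak caller are stated there. The authors deposited FPKM per gene; for the knockdown table that unit was inferred from the values. They also deposited log2 fold changes and p-values of each comparison and, per peak, a fold enrichment (ratio), a log2 m7G change and log10 values for its significance, per the file headers.

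Levels were compared as log2((FPKM + 1)/(FPKM + 1)) over genes averaging 1 FPKM or more; this scale shrinks differences of low genes, so folds are given as plain FPKM ratios. No set test was run. Of 20806 co-culture genes with no 0, the FPKM ratios of 20803, and of 9347 of 9348 in the knockdown table, were ratios of whole numbers times a constant (relative tolerance 1e-13). Effective library sizes were set by the RefSeq lengths of 12 mitochondrial genes. The smallest reads that left gene lengths whole, in both tables together where a gene was in both, gave the intervals; true reads can be multiples of these, so intervals are at their widest. The procedure was tested on simulated data. Peak starts were taken as 0-based and are given 1-based. Promoters are from RefSeq.

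The members, gene lists and tests were chosen with earlier results of these data known. All members are named or counted; of each further list, the highest and lowest gene past 2-fold were to be named, apart from any that is not reported here. MBTPS1, MBTPS2, NPC1, NR1H3, ACSS2, ACSL4, PNPLA3, SCD5, PLIN3, PNPLA2, SOAT1, LPIN1, CPT2, HADH, PPARA and the marker genes other than KRT19 and CDX2 are named outside that rule, after their values were seen. Proteins were not used here. Python 3.11.15, pandas 2.3.3, scipy 1.17.1 and matplotlib 3.10.9 were used.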

Additional observations from a re-analysis of the deposited data

How the results depend on the processing

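The count of members at least 2-fold higher in S-CAFs-w13 was 10 or 11 under the 6 alternatives of pseudocount, filter and scaling and 15 at 1.5-fold. The count of lower members, 1, was 0 at a mean of 5 FPKM or more, where PMVK no longer passed, 2 on the authors' scaling (EBP added), 3 without the mitochondrial genome (ACAT2 and EBP added) and 3 at 1.5-fold. The co-culture medians were 1.11 (regulators), 1.90 (STARD4) and 0.038 (fatty acid arm) on the authors' scaling, and 1.04, 1.84 and -0.0281 without the mitochondrial genome; the fatty acid median was -0.0026 with no filter. In the knockdown, 2 members were higher at 1.5-fold. For m7G, a p-value under 0.05 in place of the FDR gave 1 higher and 2 lower member peaks. Read as control over knockdown there were 1 higher and 0 lower, and the median was 0.0704. The median was -0.137 for 5′ UTR peaks and -0.102 at a mean input of at least 5 FPKM; the cause was not tested. Over all genes, the 2-fold counts in S-CAFs-w13 were 1939 higher and 1777 lower with a pseudocount of 0.1 FPKM, against 1338 and 1167, and 103 and 112 in the knockdown against 36 and 47. They were 639 and 539 (co-culture) and 7 and 16 (knockdown) at a mean of 5 FPKM or more, and 3004 and 2722, and 210 and 225, at 1.5-fold. The split of 53.4% higher was 39.0% on the authors' scaling and 36.2% without the mitochondrial genome. The authors' own fold changes lay within the counting interval for 26 of 33 members in co-culture and all 25 in the knockdown. For the members they are the FPKM ratios moved by 1 constant per comparison (log2 -0.144 in co-culture, -0.0143 in the knockdown). The count thus depends on the width of the intervals and is no independent check. No paired analysis was possible because each group holds 1 library, and no library could be left out for the same reason. STARD4 gives no knockdown value at a mean of 5 FPKM or more. Depth limits PMVK and ELOVL5 most.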

Other observations

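Lipid genes next to the synthesis pathways went both ways in S-CAFs-w13 over DLD1-W13CM. Of 8 measured genes of sterol ester and triglyceride storage, 0 were past 2-fold on the log2(FPKM + 1) scale. Of all genes, 9.08% were 2-fold or more higher on that scale and 7.92% lower. As a plain FPKM ratio, LPIN1 was 2.39-fold higher (1.93 to 2.98). Of the 8 storage genes, 5 were above 0, beside 52.3% of all genes. The median log2 ratio of the storage genes was 0.60, beside 0.02 for all genes. The lipid droplet protein PLIN3 stood at 34.0 FPKM in S-CAFs-w13 and 17.2 FPKM in DLD1-W13CM, and the triglyceride lipase PNPLA2 at 43.5 and 22.5 FPKM. SOAT1, which esterifies cholesterol, went the other way, at 4.09 FPKM in S-CAFs-w13 and 6.33 FPKM in DLD1-W13CM. Of 12 fatty acid oxidation genes, 0 were past 2-fold on the log2(FPKM + 1) scale, 6 were above 0 and the median was 0.01. As plain FPKM ratios, CPT2 (0.427) and HADH (0.462) were past 2-fold lower and PPARA (2.08) past 2-fold higher.

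The side branches of the isoprenoid pathway had 11 measured genes, with a median of 0.23. Of these, 2 were at least 2-fold lower, beside 7.92% of all genes, and 0 higher, beside 9.08%. PDSS1, which builds the side chain of coenzyme Q, stood at 2.80 FPKM in S-CAFs-w13 and 9.36 FPKM in DLD1-W13CM, 3.35-fold lower (2.27 to 5.06). In knockdown input over control input the medians were 0.07 for storage (6 of 6 measured above 0), -0.21 for isoprenoid branches (4 of 10), 0.12 for other fatty acid synthesis genes (8 of 12) and 0.11 for fatty acid oxidation (5 of 6). In any of these lists 0 genes were past 2-fold, beside 0.429% of genes higher and 0.560% lower. SCD5 came nearest, at 6.77 FPKM in knockdown input and 3.39 FPKM in control input. Its log2(FPKM + 1) ratio was 0.83, and its plain FPKM ratio was 1.9997 (1.65 to 2.44), above that of any member.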
